A study of Mus musculus with 13 samples.

Results

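A set of 10 genes of Notch signalling and secretory cell fate were followed across colorectal tumors and normal tissue: Atoh1, Gfi1, Spdef, Foxa3, Creb3l1, Neurog3, Neurod1, Hes1, Dll1 and Jag1. They were chosen by name, as the probes whose gene name on the array equals one of these 10 symbols. All 10 genes were on the array, with 12 probes. The filter asked for 2 or more of the 13 arrays with signal well above background, and 9 of the 10 genes passed it, among 25468 genes or transcripts tested.

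The tissue came from CPC-Apc mice, in which a CDX2 promoter drives a nuclear Cre recombinase and 1 Apc allele carries loxP sites. All 4 groups share this genotype, so no group has 2 intact Apc alleles throughout the Cre-expressing epithelium. The groups were tumors of mice injected with a combination of microRNAs (2 arrays), tumors of control mice (7 arrays), normal tissue of microRNA-injected mice (2 arrays) and normal tissue of control mice (2 arrays). The combination held miR-200c, miR-302a, -b, -c and -d, and both strands of miR-369, with 25 µg of each in super carbonate apatite particles. There were 24 injections into the tail vein, 3 per week, begun when mice were 8 weeks old. The treatment text names a negative control microRNA for the other mice, while the titles of the control arrays give only the strain. The labels do not link samples to animals, so several samples may share an animal, and p-values measure the spread between these samples only.

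Notch signalling passes between touching cells. Ligands such as Dll1 and Jag1 on one cell bind Notch receptors on its neighbour, the receptor is cleaved, and its intracellular part joins Rbpj on DNA and turns on targets such as Hes1. In the intestinal crypt Hes1 represses Atoh1, and cells that escape this repression express Atoh1 and become goblet, enteroendocrine or Paneth cells instead of absorptive cells.

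Levels are log2 of the processed signal over the 75th percentile of the same array. That percentile was 415 to 740 intensity units on the 9 tumor arrays and 214 to 320 on the 4 normal arrays, and 50.7% to 57.0% of spots were well above background. The arrays lay on 2 slides, 8 on slide 1 and 5 on slide 2. Both control normal samples were on slide 2 and 6 of the 7 control tumors on slide 1. Slide 1 held 7 tumors and 1 normal sample. Slide 2 held 2 tumors, microRNA tumor 1 and control tumor 3, and 3 normal samples, so fits on slide 2 alone rest on these 2 tumors. All 8 epithelial markers (Epcam, Cdh1, keratins and claudins) were well above background on every array. Their summed level, as a fold of the 75th percentile, was 659 to 1090 in tumors and 1050 to 1430 in normal tissue.

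The injected microRNAs are shown because they define the treated groups. The labels do not say which arm of miR-200c or miR-302 was given, so the 3p arms are printed, with the seed (bases 2 to 8) in capitals. Sequences are RefSeq entries on GRCm38.p6, and miR-302a-3p is named only. By these entries miR-302b-3p and miR-302d-3p share the seed AAGUGCU. The miR-302c-3p entry holds AAGUGCU from its first base, so its bases 2 to 8 read AGUGCUU. The entries of miR-200c-3p, miR-369-3p and miR-369-5p have seeds of their own.
miR-200c-3p: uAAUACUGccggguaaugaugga
miR-302b-3p: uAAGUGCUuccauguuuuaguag
miR-302c-3p: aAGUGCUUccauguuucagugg
miR-302d-3p: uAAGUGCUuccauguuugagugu
miR-369-3p: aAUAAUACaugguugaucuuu
miR-369-5p: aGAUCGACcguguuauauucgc

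Promoter windows (250 bases before to 50 after the RefSeq start, GRCm38.p6) are shown for 3 genes. Neurog3 was the one regulator that passed the test between tumors and normal tissue, and Atoh1 and Spdef varied most among tumors. Windows were found for 8 of the 10 genes, not for Hes1 or Creb3l1. Where a gene has more than 1 window, as Gfi1 and Dll1 do, the first listed was counted, for these genes and for all others. They were searched on both strands for the Rbpj core TGGGAA, for the N-box CACNAG that Hes proteins bind, and for the E-box CANNTG, a site of basic helix-loop-helix factors such as Atoh1 and Neurog3. Its narrower form, CAGNTG, overlaps it by definition. The Rbpj core was in 1 of the 8 genes' windows (Spdef), against 25.5% of all 27025 windows in the table. The N-box was in 3 of 8 (42.6% of all windows), the narrower E-box in 4 of 8 (51.1%) and the wider one in 6 of 8 (72.1%). The second Dll1 window held the N-box at 14 and the narrower E-box at -155 and -132, and counting it would make these 4 and 5 of 8. Capitals mark the narrower E-box at position -165 of Neurog3, the Rbpj core at -22 of Spdef, and the N-box, on the reverse strand, at 24 of Atoh1.
Neurog3, chr10:62132840-62133139, plus strand: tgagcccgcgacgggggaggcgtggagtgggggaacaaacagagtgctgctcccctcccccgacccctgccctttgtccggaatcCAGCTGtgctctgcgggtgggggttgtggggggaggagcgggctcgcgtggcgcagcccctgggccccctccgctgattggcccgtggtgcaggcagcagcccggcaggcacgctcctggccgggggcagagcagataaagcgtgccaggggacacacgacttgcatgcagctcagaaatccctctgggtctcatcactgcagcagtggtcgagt
Spdef, chr17:27728902-27729201, minus strand: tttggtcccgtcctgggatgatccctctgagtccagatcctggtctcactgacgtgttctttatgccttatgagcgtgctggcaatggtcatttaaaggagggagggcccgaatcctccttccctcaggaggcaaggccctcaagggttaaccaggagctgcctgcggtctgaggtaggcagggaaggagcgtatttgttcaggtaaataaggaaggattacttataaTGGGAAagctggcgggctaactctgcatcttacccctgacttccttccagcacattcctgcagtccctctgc
Atoh1, chr6:64728875-64729174, plus strand: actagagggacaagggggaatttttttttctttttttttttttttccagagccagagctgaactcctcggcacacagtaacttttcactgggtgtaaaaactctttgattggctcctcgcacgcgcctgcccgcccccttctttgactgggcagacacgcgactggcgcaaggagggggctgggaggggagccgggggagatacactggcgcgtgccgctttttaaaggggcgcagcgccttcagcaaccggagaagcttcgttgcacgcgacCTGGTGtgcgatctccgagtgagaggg

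The first comparison set tumors against normal tissue over both groups of mice, with treatment as a second term. Neurog3 was lower in tumors, 2.92-fold, and was the only 1 of the 9 tested regulators past the threshold (limma adjusted p under 0.05). Over all genes 31.4% were called in this comparison, 11.7% as higher and 19.7% as lower, so 1 of 9 is no more than that background. Tumor and normal samples did not overlap for 1 of the 9, against 17.4% of all genes. Of the other 8 genes, 6 had lower and 2 had higher fitted levels in tumors, none past the threshold. The median log2 difference of the 9 was -0.71, against -0.11 over all genes. Where a bulk level is lower, fewer cells of a type and less RNA per cell cannot be told apart.

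**Figure D1:**
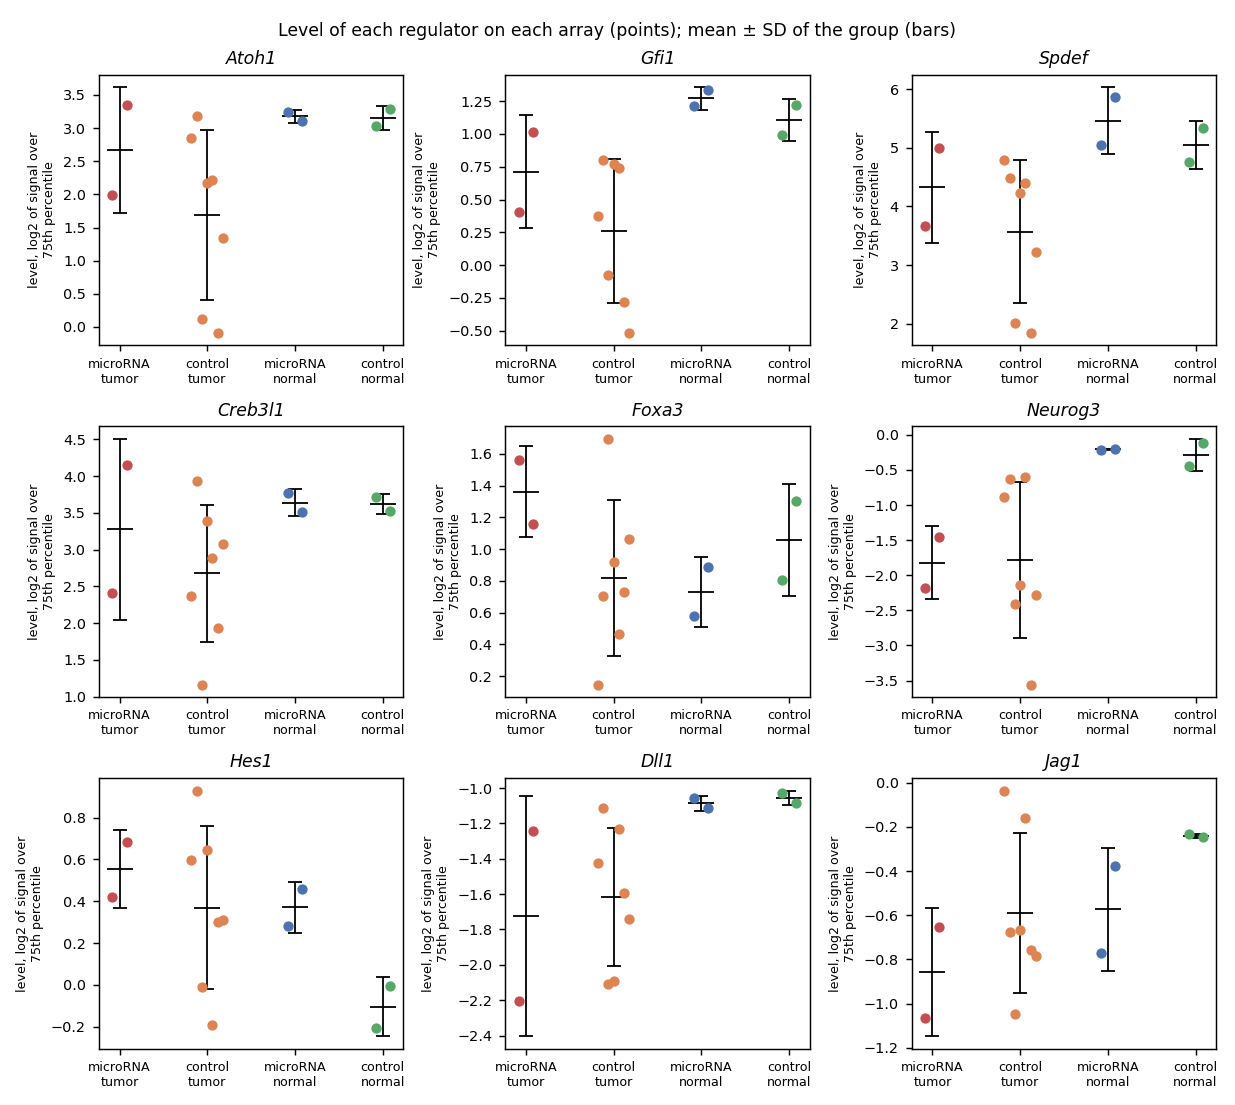
Level of each of the 9 regulators (vertical axes, log2 of signal over the array's 75th percentile) on each array, by group, with points for arrays and bars for mean ± SD. All 9 tumors lie below all 4 normal samples for Neurog3, while the tumors of Foxa3 and Jag1 spread on both sides of the normal samples and those of Hes1 lie within or above them.

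Among the ligands, Dll1, the main Notch ligand of secretory progenitors, was at -2.21 and -1.25 in microRNA tumors, and at -2.11, -1.59 and -1.11 (lowest, median, highest) in control tumors. It was at -1.06 and -1.11 in microRNA normal tissue and at -1.03 and -1.08 in control normal tissue. 8 of 9 tumors were below every normal sample, and control tumor 2 lay within the normal range. Dll1 is read by a probe printed at 10 spots (mm9 chr17:15504623-15504682), 2 of which were left out as outliers in microRNA tumor 1. The SD between spots of 1 array was 0.043 to 0.14. Its fitted log2 difference was -0.59 (SE 0.23, 95% interval -1.10 to -0.085, adjusted p 0.070) and missed the threshold. It passed with normexp background correction (-0.54, adjusted p 0.016), with quantile normalization (-0.62, adjusted p 0.044) and with the slide as a block (-0.81, adjusted p 0.022), and on slide 2 alone it was -1.09 (adjusted p 0.030), against -0.13 (adjusted p 0.93) on slide 1 alone.

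Jag1, a Notch ligand of epithelial and stromal cells, was at -1.06 and -0.65 in microRNA tumors, and at -1.05, -0.67 and -0.035 in control tumors. In microRNA normal tissue it was at -0.77 and -0.38, and in control normal tissue at -0.23 and -0.25. Tumor and normal values overlapped, with 3 tumors below and 2 above every normal sample. The log2 difference in the fit was -0.32 (SE 0.20, adjusted p 0.23).

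Hes1, the transcriptional repressor that Notch turns on, was at 0.42 and 0.69 in microRNA tumors, and at -0.19, 0.31 and 0.93 in control tumors. It was at 0.28 and 0.46 in microRNA normal tissue and at -0.20 and -0.0048 in control normal tissue. No tumor lay below the normal range and 4 lay above it. Tumors minus normal tissue gave a fitted log2 difference of 0.36 (SE 0.21, 95% interval -0.094 to 0.81, adjusted p 0.20). Without scaling between arrays it was 1.36 and passed (adjusted p 0.0017), a setting under which the median of all genes was 0.89 in place of -0.11.

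Atoh1, the basic helix-loop-helix factor that starts secretory differentiation, was at 1.99 and 3.34 in microRNA tumors, and at -0.086, 2.18 and 3.18 in control tumors. It was at 3.25 and 3.11 in microRNA normal tissue and at 3.03 and 3.28 in control normal tissue. 7 of 9 tumors were below every normal sample, and microRNA tumor 2 was above them all. Limma fitted a log2 difference of -1.09 (SE 0.60, 95% interval -2.40 to 0.21, adjusted p 0.18). On slide 1 alone, with 1 normal sample, it was 0.23. On slide 2 alone, with 2 tumors, it was -2.27 (adjusted p 0.042).

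Gfi1, a zinc finger repressor that acts downstream of Atoh1 and holds back the endocrine programme, was at 0.41 and 1.02 in microRNA tumors, and at -0.52, 0.38 and 0.80 in control tumors. It was at 1.21 and 1.33 in microRNA normal tissue and at 0.99 and 1.22 in control normal tissue. 8 of 9 tumors were below every normal sample, and microRNA tumor 2 lay within the normal range. The fitted log2 difference was -0.73 (SE 0.28, 95% interval -1.33 to -0.14, adjusted p 0.059), just outside the threshold. It passed with normexp background correction (-0.66, adjusted p 0.035), and when control tumor 2 or control tumor 5 was left out (adjusted p 0.048 and 0.049). On slide 2 alone it passed at -1.02 (adjusted p 0.043), against -0.32 (adjusted p 0.87) on slide 1 alone.

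Spdef, an ETS factor needed for goblet cell maturation, was at 3.66 and 5.00 in microRNA tumors, and at 1.85, 4.23 and 4.79 in control tumors. It was at 5.05 and 5.87 in microRNA normal tissue and at 4.76 and 5.33 in control normal tissue. 7 of 9 tumors were below every normal sample and none was above. Its fitted log2 difference was -1.34 (SE 0.58, 95% interval -2.59 to -0.091, adjusted p 0.093). With the slide as a block it was -1.90 and passed (adjusted p 0.033), on slide 1 alone it was -0.87 (adjusted p 0.81) and on slide 2 alone -2.33 (adjusted p 0.040).

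Creb3l1, a membrane-bound factor that raises secretory capacity when it is cut in the Golgi, was at 2.41 and 4.15 in microRNA tumors, and at 1.16, 2.89 and 3.93 in control tumors. It was at 3.77 and 3.51 in microRNA normal tissue and at 3.72 and 3.52 in control normal tissue. No tumor lay inside this narrow normal range: 7 were below it and 2, microRNA tumor 2 and control tumor 2, above it. The log2 difference in the fit was -0.71 (SE 0.48, adjusted p 0.27). Its direction differed between the slides. On slide 2 alone, with 2 tumors, the log2 difference was -1.99 and passed (adjusted p 0.029). One of these tumors is control tumor 3, the lowest of the 9 for Creb3l1. On slide 1 alone, with 1 normal sample, the log2 difference was 0.64.

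Foxa3, a forkhead factor of goblet cells, was at 1.56 and 1.16 in microRNA tumors, and at 0.15, 0.73 and 1.70 in control tumors. It was at 0.58 and 0.89 in microRNA normal tissue and at 0.81 and 1.30 in control normal tissue. 5 of 9 tumors lay inside the normal range, 2 below and 2 above. Tumors minus normal tissue gave a fitted log2 difference of 0.10 (SE 0.28, 95% interval -0.51 to 0.71, adjusted p 0.80).

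Neurog3, the factor that commits crypt cells to the enteroendocrine fate, was at -2.19 and -1.46 in microRNA tumors, and at -3.56, -2.13 and -0.60 in control tumors. It was at -0.21 and -0.20 in microRNA normal tissue and at -0.45 and -0.12 in control normal tissue. All 9 tumors were below all 4 normal samples. The nearest samples were control tumor 5 (-0.60) and control normal 1 (-0.45). The group means were -1.82 ± 0.52 in microRNA tumors (SD, n = 2), -1.78 ± 1.11 in control tumors (SD, n = 7), -0.21 ± 0.0033 in microRNA normal tissue (SD, n = 2) and -0.28 ± 0.23 in control normal tissue (SD, n = 2). The 2 tumor groups differed by less than their SDs, and so did the 2 normal groups, where the control SD is taken. Limma fitted a log2 difference of -1.55 (SE 0.50, 95% interval -2.63 to -0.46, adjusted p 0.034).

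The Neurog3 call was close to the threshold. With the slide as a block it was -1.78 (adjusted p 0.036), on slide 1 alone -1.25 (adjusted p 0.74) and on slide 2 alone -2.06 (adjusted p 0.020). The call was lost when either microRNA normal sample, either control normal sample, microRNA tumor 1, or control tumor 4 or 7 was left out. Adjusted p was then up to 0.11, without control normal 2, where 15.1% of all genes were called against 31.4% as reported. In 3 cases a tumor and a normal sample carry the same number in their file names (8, 2 and 10). Neurog3 was lower in the tumor in each, by log2 differences of -1.98, -1.25 and -2.29, but what the number stands for is not given. The call rests on the probe at mm9 chr10:61597452-61597511. The second Neurog3 probe (mm9 chr10:61596051-61596110), designed on another transcript, gave no signal well above background on the 13 arrays.

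Neurod1, which acts after Neurog3 in endocrine differentiation, was near background. For 1 of its 2 probes no array was well above background, with 3.42 to 7.59 intensity units in tumors and 4.8 to 8.98 in normal tissue. The other was well above background on 1 of 13 arrays, microRNA normal 2, at 31.4 intensity units. Neurod1 did not pass the filter, and no fold is given.

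**Figure D2:**
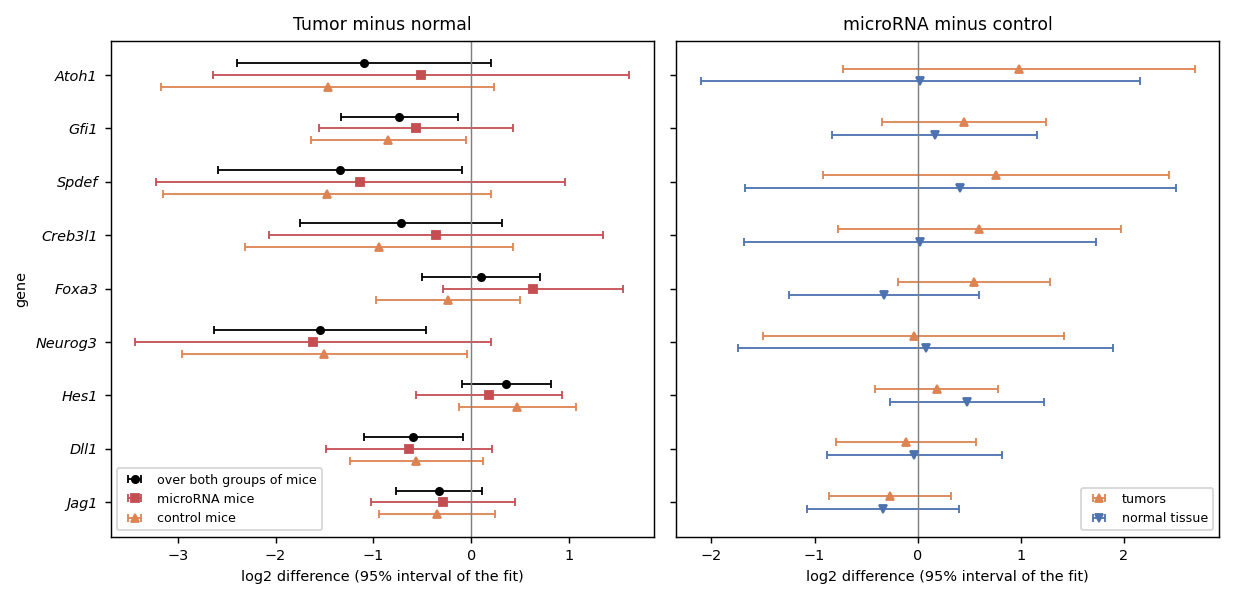
Fitted log2 differences (horizontal axes) of the 9 regulators with 95% intervals, tumor minus normal on the left and microRNA minus control on the right. Of the intervals drawn over both groups of mice, those of Neurog3, Spdef, Gfi1 and Dll1 exclude 0 before adjustment over all genes, and only that of Neurog3 passed after it.

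Within each group of mice, the same comparison called none of the 9 regulators. In control mice, where 19.1% of all genes were called, the lowest adjusted p was 0.11 and the lowest unadjusted p 0.039, both for Gfi1. The log2 differences there were -1.50 for Neurog3, -1.48 for Spdef, -1.47 for Atoh1, -0.94 for Creb3l1, -0.85 for Gfi1, -0.56 for Dll1, -0.35 for Jag1, -0.24 for Foxa3 and 0.47 for Hes1. Gfi1, Dll1 and Neurog3 had no overlap between control tumors and control normal tissue, and the other 6 overlapped. Over all genes 33.6% did not overlap, so 3 of 9 is near that background. In microRNA mice, where 3.11% of all genes were called, the range was -1.61 (Neurog3) to 0.63 (Foxa3), with a lowest adjusted p of 0.27 and a lowest unadjusted p of 0.077. 5 of the 9 did not overlap between the 2 microRNA tumors and the 2 microRNA normal samples, against 53.5% of all genes.

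The effect of the microRNA combination on these regulators was the next question. Between microRNA and control tumors none of the 9 was called and all 9 overlapped. Over all genes 0.00393% were called and 2.49% did not overlap. The fitted differences ran between -0.27 (Jag1) and 0.98 (Atoh1), 6 of 9 were above 0, each adjusted p was 0.9995 and the lowest unadjusted p was 0.13 (Foxa3). For Atoh1 the 2 microRNA tumors averaged 2.67 ± 0.96 (SD, n = 2) and the 7 control tumors 1.69 ± 1.28 (SD, n = 7). The 95% interval of that difference was -0.73 to 2.69, which holds lower as well as higher levels in microRNA tumors. For Hes1 the interval was narrower, -0.41 to 0.78 around a difference of 0.18, and for Neurog3 it was -1.50 to 1.42 around -0.036.

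In normal tissue none of the 9 was called between microRNA and control mice, where 0.534% of all genes were called. The differences ran between -0.33 (Jag1) and 0.47 (Hes1), with a lowest adjusted p of 0.96. Hes1 was higher in both microRNA normal samples (0.28 and 0.46) than in both control normal samples (-0.20 and -0.0048). Jag1 was lower in both (-0.77 and -0.38, against -0.23 and -0.25). The other 7 overlapped. Over all genes 40.5% did not overlap in this comparison of 2 with 2 samples, so 2 of 9 is below that background. The normal groups also differed in squamous epithelium markers. Their mean log2 level was -3.26 and -3.07 in microRNA and 0.35 and -0.55 in control normal tissue. The part of this in the Jag1 difference was not tested. The tumor effect did not pass a test of its difference between the 2 groups of mice for any of the 9 (0.283% of all genes called, lowest adjusted p 0.81), with fitted values between -0.29 (Hes1) and 0.96 (Atoh1).

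Atoh1, Spdef, Neurog3 and Creb3l1 varied widely among the tumors, and the other 5 about as much as the median gene. Over the 9 tumors the SD of Atoh1 was 1.24, larger than in 95.2% of all genes, while over the 4 normal samples it was 0.12, smaller than in most genes (6.18% had a smaller one). Spdef had a tumor SD of 1.16 (larger than in 94% of genes), Neurog3 0.98 (90%) and Creb3l1 0.95 (89.1%). Hes1, Jag1, Dll1, Foxa3 and Gfi1 had tumor SDs of 0.35 to 0.54, against 0.42 for the median gene. Between the lowest and highest tumor the range was 10.8-fold for Atoh1, 8.88-fold for Spdef, 7.92-fold for Creb3l1 and 7.76-fold for Neurog3. In normal tissue it was 1.2-fold for Atoh1, 2.16-fold for Spdef, 1.2-fold for Creb3l1 and 1.25-fold for Neurog3.

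**Figure D3:**
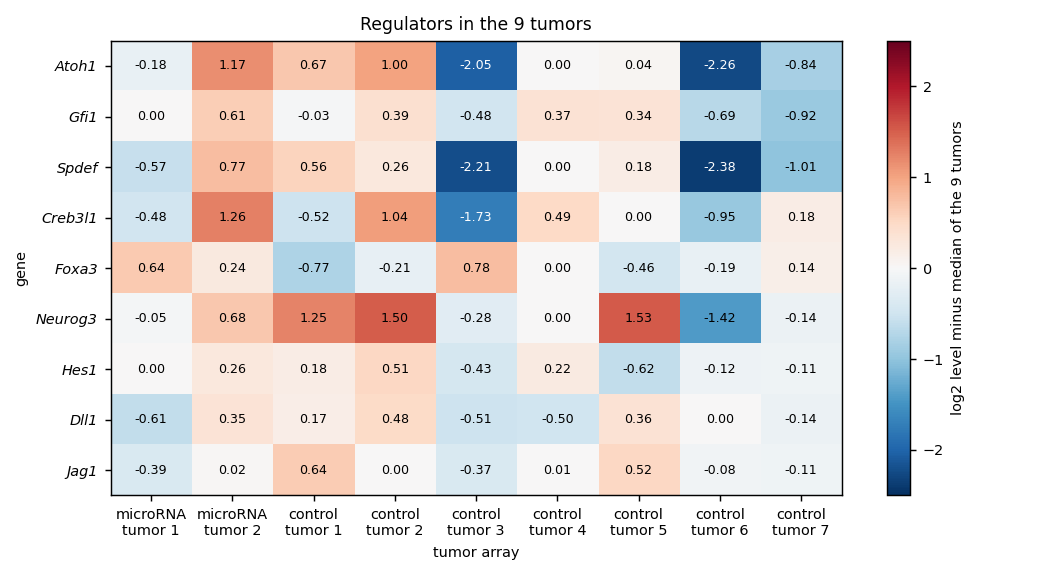
Level of each regulator in each of the 9 tumors, as the log2 level minus the median of the 9 tumors (colour and number, rows are genes and columns tumors). Control tumors 3 and 6 stand more than 2 below the median for Atoh1 and Spdef, but not for Hes1, Dll1 or Jag1.

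Control tumors 3 and 6 were the 2 lowest for Atoh1 (0.13 and -0.086) and for Spdef (2.02 and 1.85). They were also the lowest 2 for Creb3l1 (1.16 and 1.94) and for Neurog3 (-2.41 and -3.56). For Gfi1 the lowest was control tumor 7 at -0.52, followed by control tumor 6 at -0.28 and control tumor 3 at -0.074. Control tumor 3 was also second lowest for Hes1 (-0.011), Dll1 (-2.11) and Jag1 (-1.05), while control tumor 6 was nearer the middle for these (0.30, -1.59 and -0.76). The lowest tumor for Hes1 was control tumor 5 (-0.19), which had the highest Neurog3 of all tumors (-0.60). Foxa3 had another order: its highest tumor was control tumor 3 (1.70), among the lowest for the 4 genes above. At the other end, microRNA tumor 2 was the highest of the 9 for Atoh1, Gfi1, Spdef and Creb3l1.

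Pearson's r with Atoh1 over the 9 tumors, given as a measure of likeness, was 0.98 for Spdef, 0.82 for Neurog3, 0.81 for Gfi1 and 0.81 for Creb3l1. It was 0.61 for Hes1, 0.53 for Dll1, 0.48 for Jag1 and -0.37 for Foxa3. Among 16630 genes with a symbol, Spdef ranked 13th in likeness to Atoh1. Without control tumors 6 and 3, the farthest from the median, r with Spdef was 0.91 over 7 tumors and with Creb3l1 0.53. The 3 genes most like Atoh1 were Galnt10, an enzyme that starts mucin-type glycans (r = 0.99), Rflnb (0.99) and the transcription factor Tfcp2l1 (0.99). The 3 most like Hes1 were the kinesin Kif13a (0.96), the coactivator Ppargc1a (0.94) and the glycolytic regulator Pfkfb4 (0.94). These points share arrays, scaling and tissue makeup.

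**Figure D4:**
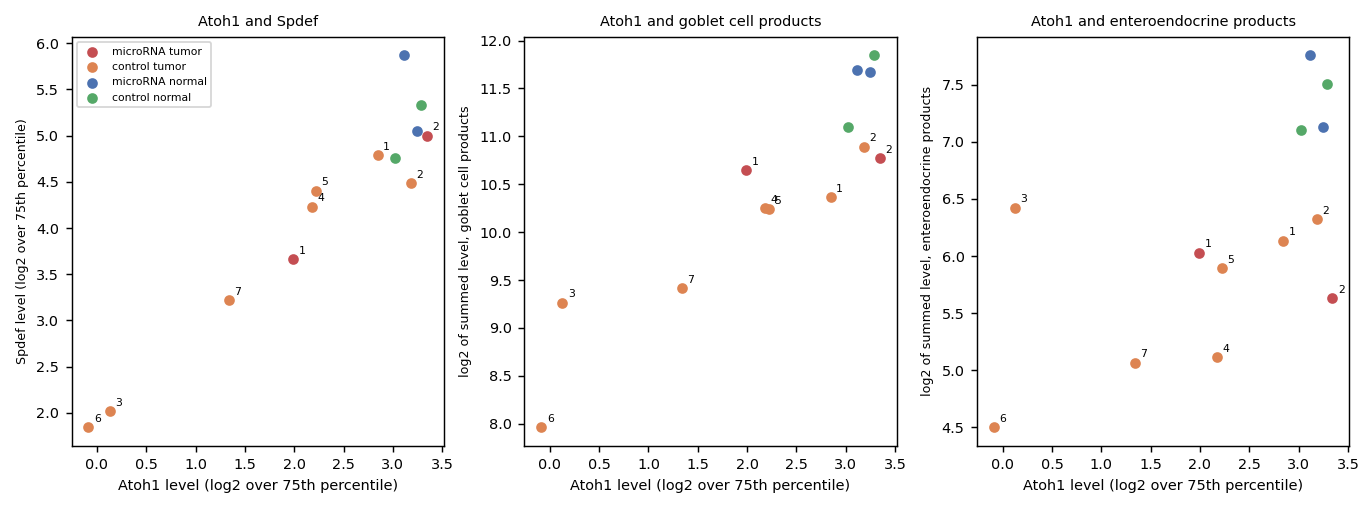
Atoh1 level (horizontal axes, log2) against the Spdef level and against the log2 summed level of goblet cell products and of enteroendocrine products (vertical axes), 1 point per array, tumors numbered by replicate. Control tumor 6 is lowest in all 3 panels, and control tumor 3, low in Atoh1, is the tumor with the highest summed enteroendocrine products. Sums are weighted to the brightest genes, and by mean log2 level control tumor 3 (-0.27) is not the highest.

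The products of the cells these regulators specify were described from lists of genes. The summed level of 15 goblet cell products, as a fold of the 75th percentile, was 1600 and 1750 in microRNA tumors and 250 to 1900 in control tumors. It was 3270 and 3320 in microRNA normal tissue and 2190 and 3680 in control normal tissue, so no tumor reached the normal samples. Control tumor 6, lowest in Atoh1 and Spdef, had the lowest sum, 250, and control tumor 3 the next, 615. Enteroendocrine products summed to 22.7 to 85.8 in tumors and 137 to 216 in normal tissue. By this sum control tumor 3 was the highest tumor (85.8) and control tumor 6 the lowest (22.7), though both were low in Neurog3. A sum is weighted to its brightest genes. By mean log2 level, control tumor 3 (-0.27) was below both microRNA tumors and control tumors 1, 2 and 5 (0.063 to 0.84). It was above control tumors 4 (-0.34), 7 (-0.62) and 6 (-1.38).

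Of the goblet cell products, 5 of 15 fell in tumors and none rose, where 19.7% of all genes fell. The median log2 difference was -1.26 over the list, against -0.11 over all genes. Guca2a, the precursor of the peptide guanylin, changed by -2.93 (adjusted p 0.011), the antimicrobial ribonuclease Ang4 by -2.61 (adjusted p 0.016), the secreted Clca1 by -3.14 (adjusted p 0.038) and the trefoil peptide Tff3 by -1.26 (adjusted p 0.045). Leaving out 1 array ended the call of Tff3 in 8 of 13 cases, of Clca1 in 6, of Ang4 in 2 and of Guca2a in 1. Each of these 4 lost its call without control normal 2, where 15.1% of all genes were called, against 31.4% with all arrays. With the slide as a block the calls of Ang4 (-2.06, adjusted p 0.060), Clca1 (-2.64, adjusted p 0.11) and Tff3 (-1.05, adjusted p 0.13) were lost. That of Guca2a held (-3.14, adjusted p 0.018). Among tumors Guca2a was highest in control tumors 5 and 1 (7.57 and 7.45). These tumors also had the highest sums of absorptive colonocyte genes (552 and 968), while Clca1 was lowest in control tumor 5 (0.84). Which cells the Guca2a signal came from was not tested. Muc2, the main gel-forming mucin, was at -1.16 and was not called (adjusted p 0.26).

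Of 17 enteroendocrine products that passed the filter (of 18), 11 fell and none rose, where 19.7% of all genes fell. The median was -2.0. The 4 with the smallest p were the gut hormone neurotensin (Nts, -4.01, adjusted p 0.0023), the granin Scg3 (-2.53, adjusted p 0.0039), the prohormone convertase Pcsk1 (-2.08, adjusted p 0.0050) and carboxypeptidase E (Cpe, -1.84, adjusted p 0.0054). These 4 calls held in all 13 fits with 1 array left out. Scg3 (0.63) and Cpe (5.49) were highest in control normal 1, which also had the highest sum of enteric neuron and glia markers (7.84). Nts (3.41) and Pcsk1 (-0.30) were highest in microRNA normal 2. Which cells these products came from was not tested. Of 14 absorptive colonocyte genes that passed (of 15), 11 also fell and none rose, again against 19.7% of all genes. Their median was -2.76. Among them were Car4 (-1.69, adjusted p 0.0046), Sult1a1 (-4.24, adjusted p 0.0064), Car2 (-2.40, adjusted p 0.0081) and Hnf4a (-1.40, adjusted p 0.0092). Lower levels were thus measured in absorptive genes as well as in goblet and enteroendocrine products. Markers of other secretory-type cells differed: 4 Paneth cell markers summed to 103 to 335 in tumors and 71 to 340 in normal tissue. The mean log2 level of these 4 was 4.39 to 5.92 in tumors. It was 4.73 and 3.83 in microRNA normal tissue and 1.75 and 2.51 in control normal tissue, so the 2 normal groups did not overlap. The 4 tuft cell markers that passed (of 5) summed to 1.31 to 2.91 in tumors and 0.823 to 1.00 in normal tissue, above every normal sample. Their mean log2 level overlapped, at -2.62 to -1.48 in tumors and -2.56 to -2.11 in normal tissue. A sum is weighted to its brightest genes, so it can differ from the mean log2 level.

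Of the 12 secretory and goblet transcription factors that passed (of 13, and including 5 of the regulators above), 2 rose and 1 fell, with a median of -0.27. These 3 of 12 are no more than the 31.4% called over all genes. Klf4, a zinc finger factor of goblet and surface cells, fell by 1.49 (adjusted p 0.010). Foxa1 rose by 0.65 (adjusted p 0.022) and Sox9, a crypt base factor, by 0.77 (adjusted p 0.034). Leaving out 1 array ended the call of Sox9 in 6 of 13 cases and of Foxa1 in 3. Xbp1, a factor of the secretory stress response, was at -0.25 (adjusted p 0.24). Of 9 enteroendocrine factors that passed (of 15), Neurog3 and the homeobox factor Nkx2-2 fell, and none rose, with a median of -0.94. These 2 of 9 are near the 19.7% of all genes that fell. Nkx2-2 changed by -0.97 (adjusted p 0.018), but the mean of its probes gave -0.57 (adjusted p 0.28), so its probes disagree. The call was also lost with the slide as a block (-0.69, adjusted p 0.061) and without either control normal sample, and without scaling between arrays the value turned to 0.022 (adjusted p 0.95). Insm1 (-1.12, adjusted p 0.069), Fev (-0.83, adjusted p 0.065) and Lmx1a (-1.35, adjusted p 0.10) were not called.

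The Notch ligands and receptors did not move one way. Of the 9, 4 rose and 1 fell, with a median of 0.39. Over all genes 11.7% rose and 19.7% fell. Notch4, a receptor of endothelium, rose by 1.52 (adjusted p 0.0013), the ligand Jag2 by 1.55 (adjusted p 0.0017) and the receptor Notch2 by 0.92 (adjusted p 0.011). The summed level of 7 endothelial markers was 7.39 to 12.9 in tumors and 6.48 to 15.7 in normal tissue. Notch1 fell by 2.30 (adjusted p 0.0056) at its brightest probe, while the mean of its passing probes gave -0.90 (adjusted p 0.071). The other ligand genes, Dll3 (0.044, adjusted p 0.94) and Dll4 (0.39, adjusted p 0.056), were not called.

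Of 27 Notch effectors and modulators that passed (of 28), 5 rose and 4 fell, with a median of -0.039. These 9 of 27 are near the 31.4% called over all genes. The target Heyl was not well above background in any normal sample, so it passed the filter through tumors alone. It was at least 2.43-fold higher in tumors, but with normexp background correction its difference was 0.033 (adjusted p 0.86). Its limma adjusted p of 0.0027 set tumor signal against normal values near background. That call, and its place among the genes that rose, depend on this selection. Hey1 of the same family was well above background on all 9 tumor and all 4 normal arrays. It rose by 1.23 (adjusted p 0.017), with tumor and normal samples overlapping. Hes6, which counters Hes1 in neural cells, rose by 1.48 (adjusted p 0.0099). Hes7 fell by 0.88 (adjusted p 0.0083), but without scaling it was at 0.12 (adjusted p 0.75), where the median of all genes was 0.89. Dtx1, a ubiquitin ligase that modulates Notch, fell by 3.09 (adjusted p 0.0049). Hes1 and the Hes6, Hes7 and Heyl genes of the same family had different results in the same samples. None of the 7 lists had a called gene between microRNA and control tumors, where 0.00393% of all genes were called.

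Markers of other tissue layers moved with the comparison. The summed level of 8 smooth muscle markers was 37.9 to 248 in tumors and 420 to 1030 in normal tissue, and that of 5 adipocyte markers 1.44 to 5.9 in tumors and 25.8 to 44.9 in normal tissue. Fibroblast markers (6 genes) summed to 133 to 305 in tumors and 75.3 to 118 in normal tissue, and markers of enteric neurons and glia (8 genes) to 1.06 to 2.57 in tumors and 3.07 to 7.84 in normal tissue. Several lists did not overlap between the 2 normal groups. Smooth muscle markers summed to 420 and 452 in microRNA and 1030 and 738 in control normal tissue. Fibroblast markers summed to 75.3 and 79.7 against 116 and 118. Enteric neuron and glia markers summed to 3.4 and 3.07 against 7.84 and 3.97. Squamous epithelium markers (6 genes) summed to 7.56 and 8.69 in microRNA and 11.9 and 22 in control normal tissue. In tumors they summed to 7.31 to 14.3. Skeletal muscle markers (5 of 6 passed) summed to 1.66 and 2.06 in microRNA and 4.65 and 7.27 in control normal tissue. In tumors they summed to 0.365 to 1.48. Notch1 was at 2.15 and 2.22 in microRNA and 3.68 and 2.91 in control normal tissue. The part of tissue makeup in the differences above was not tested.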

How the data were processed

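Per the labels' protocols, Cy3-labelled cRNA was made from 35 ng of total RNA and read on a 1-colour mouse expression array. Per the file headers, the authors used Feature Extraction 10.7.3.1, and the deposited processed signal is a linear intensity, corrected for background within each array and left unscaled between arrays. The series' deposited value table repeats these intensity values (largest relative difference 0). Deposited raw and background intensities entered only the normexp alternative.

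The 3671 control spots were dropped, leaving 59305 spots and 55681 probes. Flagged spots were set to missing, 2 of them on member probes, and spots of 1 probe were averaged. The log2 intensity of each array was reduced by its log2 75th percentile. Probes needed signal well above background on 2 or more arrays, and each gene was taken at its probe with the highest mean. Old gene names were updated through RefSeq accessions (26582 probes matched, 2892 changed name). Probe coordinates are those of the files, on mm9, and no genome was used here.

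All 13 arrays entered 1 limma fit (version 3.58.1, lmFit and eBayes, in R 4.3.3 with version 1.17.8 of data.table) with a shared estimate of the spread. Tumor against normal tissue over both groups of mice came from an additive fit of tissue and treatment, and the other 5 contrasts came from a fit of the 4 group means. P-values were adjusted by Benjamini-Hochberg over all 25468 genes and called under 0.05. The number of arrays limits the precision. The procedure was tested on simulated data. Python 3.11.15 with matplotlib 3.10.9 drew the figures.

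The 10 regulators, the 7 pathway lists and the marker lists were chosen with earlier results of these data known. Named genes are all 10 regulators, up to 4 other genes of each list with the smallest p in tumor against normal tissue over both groups of mice, and the 3 genes most like Atoh1 and most like Hes1 in Pearson's r over the 9 tumors. Muc2, Dll3, Dll4 and Hey1 fall outside that rule and were named after their values were seen. A fold against a group with no array well above background is a lower limit. It is set against the mean, over that group's arrays, of the higher of the array's lowest well-above-background signal and the probe's own.

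The alternatives tried were normexp (offset 50), quantile normalization, the deposited values unscaled, no filter on dim probes, the mean of a gene's passing probes, slide 1 or slide 2 alone, the slide as a block, the replicate number as a block, the file-name number as a random block, and each array left out in turn. The number in the file names recurs between tumor and normal samples: microRNA tumor 1 and microRNA normal 1 share 8, microRNA tumor 2 and microRNA normal 2 share 2, and control tumor 3 and control normal 2 share 10. What it stands for is not given in the sources used here. Samples of different groups with the same replicate number in their titles made 12 pairs. The correlation of their deviations from the group means ran between -0.19 and 0.42. In a group of 2 arrays the 2 deviations mirror each other, so pairs between such groups repeat 1 value. The highest, 0.42, was that of microRNA tumor and microRNA normal samples, which also share file-name numbers. The consensus correlation within a file-name number was 0.35 in the additive fit and 0.30 in the fit of group means. These values cannot tell whether samples are paired.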

Additional observations from a re-analysis of the deposited data

How the results depend on the processing

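Neurog3, the 1 regulator called between tumors and normal tissue over both groups of mice, had a lower fitted level in tumors under every alternative. Its call was lost without scaling (-0.55, adjusted p 0.38), on slide 1 alone (-1.25) and with the replicate block (-1.04, adjusted p 0.062). Over the 13 fits with 1 array left out it ran between -1.66 and -1.37, with adjusted p 0.021 to 0.11 and 6 calls. The number of regulators called, 1 as reported, was 3 with normexp, 2 with quantile normalization, 2 without scaling (Hes1 and Foxa3, both higher), 3 with the slide as a block, 0 on slide 1 alone, 6 on slide 2 alone, 0 with the replicate block, 2 with the file-name number as a random block and 0 to 2 with 1 array left out. In control mice, where none was called, 1 was called with normexp (Neurog3) and 1 without scaling (Hes1). In these settings 33.4% and 49.4% of all genes were called. Slide 2 holds 1 control tumor, so no count is given for slide 2 alone in control mice. In microRNA mice 1 was called with the replicate block, where 4.8% of all genes were called. The labels tie a replicate number to no animal or batch. Over both groups of mice 31% of all genes were called with quantile normalization and 33.1% with the slide as a block. The share was 33.6% with the file-name number as a random block and 35.9% with no filter. With 1 array left out it ran between 15.1% (without control normal 2) and 34% (without control tumor 3). The next shares are of the same comparison. Over all genes 31.4% were called as reported, 48.1% with normexp, 60.1% without scaling, 19.3% on slide 2 alone, 11.1% with the replicate block and 0.0393% on slide 1 alone, so a count of 0 there says nothing particular to these genes.

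Scaling decides the direction of several fitted values. Of 25 named genes called as reported, 10 lost the call without scaling, and Hes7 (0.12) and Nkx2-2 (0.022) also turned direction. Among the others were Klf4 (-0.50, adjusted p 0.29), Hnf4a (-0.40, adjusted p 0.36), Car4 (-0.70, adjusted p 0.14) and Cpe (-0.85, adjusted p 0.058). The slide as a block ended 4 of the 25 calls, slide 2 alone 8 (Nts and Cpe among them), slide 1 alone all 25 and the replicate block 10. Without scaling the median of all genes was 0.89 and 95.5% of called genes were higher in tumors, against 20.7% with normexp, 24% with no filter and 51.7% with quantile normalization, and with normexp the all-gene median was -0.27. Over both groups of mice the unscaled values were 0.26 for Gfi1, 0.28 for Creb3l1, 0.40 for Dll1 and 0.67 for Jag1. In control mice they were 0.21 for Gfi1, 0.82 for Foxa3, 0.12 for Creb3l1, 0.49 for Dll1 and 0.71 for Jag1. On slide 1 alone Atoh1 was at 0.23 and Creb3l1 at 0.64. Foxa3 over both groups was at -0.00036 with the replicate block and between -0.039 and 0.34 with 1 array left out. In control mice it was at 0.19 with the slide as a block, 0.64 on slide 2 alone and between -0.49 and 0.0096 with 1 array left out. Between microRNA and control tumors the replicate block gave -0.35 for Atoh1, -0.31 for Spdef and -0.21 for Hes1. Foxa3 was at -0.13 on slide 2 alone. Neurog3 was at 0.15 with the slide as a block, 0.22 on slide 1 alone and 0.23 on slide 2 alone. Dll1 was at 0.071 with the slide as a block and 0.29 on slide 1 alone. With 1 array left out, Creb3l1 ran between -0.27 and 1.47, Neurog3 between -0.40 and 0.33 and Dll1 between -0.59 and 0.37.

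Slide 1 alone holds 1 normal sample, so no list count is given for it. The shares of all genes called were 31.4% as reported, 48.1% with normexp, 31% with quantile normalization, 60.1% without scaling and 35.9% with no filter. They were 19.3% on slide 2 alone, 11.1% with the replicate block and 33.6% with the file-name number as a random block. With 1 array left out they ran between 15.1% and 34%. Of all called genes, 95.5% were higher without scaling and 46.9% on slide 2 alone. The list counts below stand beside these shares. Notch ligands and receptors (5 called) gave 3 with the replicate block and 3 to 6 with 1 array left out. Effectors and modulators (9 called) gave 18 without scaling, 2 with the replicate block, 14 with the file-name number as a random block and 3 to 13 with 1 array left out. Secretory and goblet factors (3 called) gave 6 without scaling (all higher), 5 on slide 2 alone (all lower), 0 with the replicate block and 1 to 4 with 1 array left out. Enteroendocrine factors (2 called) gave 6 with normexp, 5 with no filter, 4 on slide 2 alone, 0 with the replicate block and 0 to 4 with 1 array left out. Goblet cell products (5 called) gave 2 with quantile normalization, 2 without scaling, 8 with no filter, 3 with the replicate block and 0 to 8 with 1 array left out, with 0 without control normal 2. Enteroendocrine products (11 called) gave 5 without scaling, 7 with the replicate block and 6 to 12 with 1 array left out. Absorptive genes (11 called) gave 5 with the replicate block and 6 to 13 with 1 array left out. The cause of these changes was not tested.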
